A study of Homo sapiens with 16 samples.

Results

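The 8 genes described here are epithelial genes found in the authors' table of enriched processes for the MDA231 line: the mucin MUC1, the keratins KRT18, KRT8 and KRT7, the tight junction genes OCLN and CLDN3, the adherens junction gene CDH1 and the transcription factor GRHL2. They were selected on being named in a listed term of that table, so their presence in it, and the enrichment values of the terms that name them, are the starting point and not a result. They are 8 of the 2676 genes named in either deposited table, of which 2646 stand in the MDA231 table and 30 in the HCC1954 table. All 8 stand in the MDA231 table and 0 in the HCC1954 table, and the tables had 0 genes in common.

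MDA231 is a triple-negative human breast cancer line and HCC1954 an ERBB2-positive one. Mice received cells of a brain-metastatic derivative of either line; 30 days later the brains were taken, 12 hours after a dose of 250 mg/kg 5-fluorocytosine. In Flura-seq, cells able to convert 5-fluorocytosine label their new RNA, which an anti-BrdU antibody then recovers. The labels give 16 libraries in 4 groups: 4 immunoprecipitated (IP) and 4 input libraries of MDA231, and 4 IP and 4 input libraries of HCC1954. All 4 groups carry the same labelling agent, dose and time, and the labels do not say whether libraries came from separate mice. The values analysed are 1 table of enriched Gene Ontology processes per line, with no value per library, so the expression of the 8 genes, its spread between replicates and the library depth are unknown here. How the authors picked the listed genes, and whether these were enriched in or depleted from IP RNA relative to input RNA, is stated in no source used here, and no direction is given for any gene below. In the 18 terms naming any of the 8, every gene is printed under a human identifier. The tables do not show how reads of mouse cells were separated from human ones. The presence of the tumour cells could not be checked against marker levels, and fewer cells and less RNA per cell cannot be told apart in these tables.

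Epithelial cells hold together in sheets through junctions. E-cadherin, the product of CDH1, joins neighbouring cells at adherens junctions through catenins, while claudins and occludin seal the gap between cells at tight junctions. Keratins 8 and 18 pair as the intermediate filaments of simple epithelium, and keratin 7 is a further simple-epithelial keratin. GRHL2 is a transcription factor known to support expression of CDH1 and claudin genes, and MUC1 is a membrane mucin of the apical surface of glandular cells. MDA-MB-231 cells are widely used as a mesenchymal-like line with little E-cadherin, which is background from cell culture and not a measurement here.

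Promoter sequence was at hand for CLDN3, OCLN, KRT8 and MUC1, from RefSeq on GRCh38.p14. The bases just before the start of CLDN3 and of MUC1 are shown because the MDA231 table names these 2 genes together for the response to hypoxia. That term had an adjusted p of 0.958 in the authors' enrichment, so the pairing is a reason for display and no result. CLDN3 is given from chr7:73770271-73770520 and MUC1 from chr1:155192917-155193165, both on the minus strand and written 5′ to 3′ toward the start. The base next to the RefSeq start of MUC1 lies within the annotated span of the gene and was searched but is not printed. Positions below are counted from the start, not from the end of the printed bases. The windows of OCLN and KRT8 lie inside the annotated span of the gene and were searched but are not shown. Capitals mark matches on either strand to CACCTG (the E-box bound by EMT repressors such as SNAI1 and ZEB1), to GGGCGG (the GC box) and to ACGTG (the core bound by hypoxia-inducible factors).
CLDN3: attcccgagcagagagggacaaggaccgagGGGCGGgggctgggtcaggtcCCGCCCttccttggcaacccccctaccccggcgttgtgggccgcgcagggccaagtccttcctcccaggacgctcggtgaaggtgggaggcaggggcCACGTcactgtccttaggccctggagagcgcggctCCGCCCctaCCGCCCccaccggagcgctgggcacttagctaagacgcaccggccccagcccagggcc
MUC1: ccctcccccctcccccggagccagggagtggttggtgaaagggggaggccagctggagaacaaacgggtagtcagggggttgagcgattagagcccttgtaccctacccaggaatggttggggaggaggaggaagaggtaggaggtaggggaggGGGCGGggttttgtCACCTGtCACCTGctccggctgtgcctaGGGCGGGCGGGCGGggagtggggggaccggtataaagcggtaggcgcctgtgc
In the 250 bases before the RefSeq start, MUC1 held 2 E-box matches, at −82 to −77 and −75 to −70 from the start, OCLN held 1, at −33 to −28, and CLDN3 and KRT8 held 0. A match to this E-box was present in 17.5% of the 35116 promoter windows in the RefSeq table. GC box matches numbered 4 in CLDN3, 4 in MUC1, 1 in OCLN and 0 in KRT8, with 42.6% of all windows holding at least 1. Of the MUC1 matches, those at −54 to −49 and at −46 to −41 each overlap the one at −50 to −45. CLDN3 held 1 hypoxia core match, at −102 to −98, and MUC1, OCLN and KRT8 held 0, against 18.5% of all windows with at least 1. The GRHL consensus AACCNGGTT was in 0 of the 4 windows and in 0.202% of all windows. No match of 1 kind overlapped a match of another kind. These are letters in a short window and were not tied to binding by any measurement. OCLN and MUC1 each have 2 starts in the RefSeq table, and the matches are given for 1 of them.

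The 8 genes lie on 6 chromosomes of GRCh38 (GENCODE release 29). GRHL2 (ENSG00000083307) spans chromosome 8, 101492432 to 101669726, on the plus strand, and CDH1 (ENSG00000039068) spans chromosome 16, 68737225 to 68835548, on the plus strand. CLDN3 (ENSG00000165215) is a compact gene of 1274 bases on chromosome 7, 73768997 to 73770270, on the minus strand. OCLN (ENSG00000197822) spans chromosome 5, 69492292 to 69558104, on the plus strand, and MUC1 (ENSG00000185499) spans chromosome 1, 155185824 to 155192916, on the minus strand. The keratins share chromosome 12. KRT7 (ENSG00000135480) lies at 52232520 to 52252186 on the plus strand, KRT8 (ENSG00000170421) at 52897187 to 52949954 on the minus strand and KRT18 (ENSG00000111057) at 52948871 to 52952901 on the plus strand. Between KRT7 and KRT8 lie 645000 bases with 22 protein-coding genes, all 22 of them keratin genes, and 0 of these 22 are named in the MDA231 table. The annotated spans of KRT8 and KRT18 overlap by 1084 bases on opposite strands, and the annotation holds 50 pseudogenes named for KRT8 and 68 for KRT18. Reads of such copies, or of the overlap where strand is not kept, could be assigned to the wrong gene, and how the authors' counting treated them was not tested.

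The 8 genes entered the MDA231 table through 18 of its 314 terms (5.73%), in 24 pairings of a gene with a term. Of the 18 terms, 14 named 1 of the genes, 2 named 2 and 2 named 3. An adjusted p under 0.05 was reached by 2 of the 18 terms (11.1%), cell cycle and cell-cell adhesion, against 15 of all 314 MDA231 terms (4.78%), and KRT18 was the sole one of the 8 genes in either. In terms with an adjusted p under 0.05, 1 of the 8 was named, where 4.99% of the 16792 background genes were; in at least 2 terms, 7 of the 8 were named, where 9.52% of background genes were, and neither count is a result, since these values chose the genes. An unadjusted p under 0.05 was reached by 12 of the 18 terms in the authors' deposited table, or 66.7%, against 68.2% of all 314 MDA231 terms. Every p, adjusted p (Benjamini) and fold below is a value of the authors' deposited table. The fold is the share of listed genes in a term over the share of background genes in it, with an exact 95% binomial interval computed here over the 3626 listed genes. That interval covers the draw of genes, not the spread between libraries, and it lay above 1 for 11 of the 18 terms and took in 1 for 7.

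**Figure D1:**
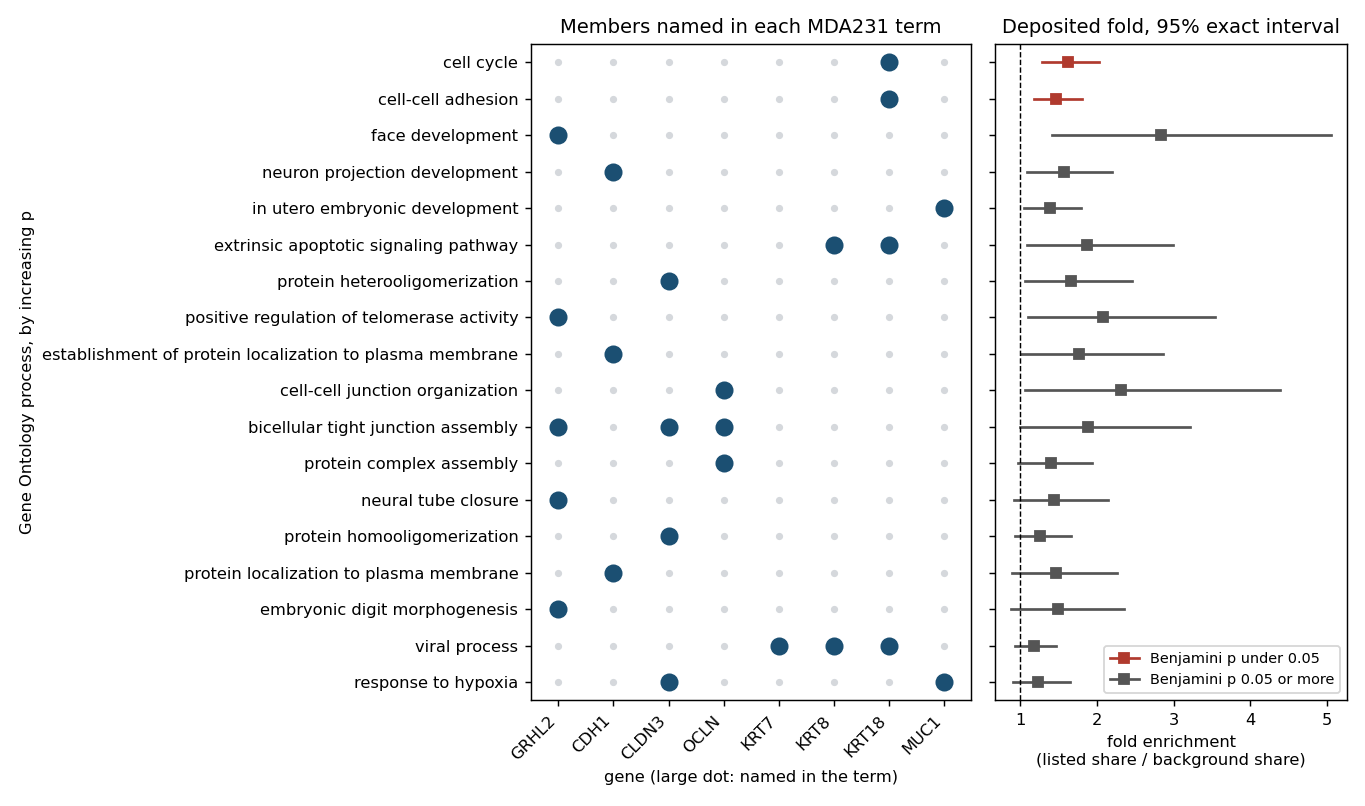
Left, the 8 genes (columns) named in each of the 18 MDA231 terms (rows, by increasing p), with a large dot where the term names the gene. Right, each term's deposited fold enrichment with its exact 95% interval; only the 2 KRT18 terms at the top have a Benjamini p under 0.05, and face development has the largest fold of the 18, 2.83.

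GRHL2 was in 5 terms, the most of the 8. The first by p was face development, which held 11 of 18 background genes, with a fold of 2.83 by the authors' deposited table (p = 0.00169, adjusted p = 0.298; exact interval from 1.41 to 5.06). It named GRHL2 beside the retinoic acid receptors RARA and RARG, the kinase BRAF and the ligand WNT5A. Positive regulation of telomerase activity held 13 of 29 genes with a fold of 2.08 by the authors' deposited table (adjusted p = 0.618; exact interval from 1.11 to 3.55), with MYC, KLF4, CTNNB1 and the telomere proteins ACD and TNKS. Neural tube closure (24 of 77 genes, adjusted p = 0.903) and embryonic digit morphogenesis (18 of 56, adjusted p = 0.951) had folds of 1.44 and 1.49 by the authors' deposited table, with intervals that took in 1. Of the 5 GRHL2 terms, 3 are thus developmental, 1 concerns telomerase, and the fifth is the tight junction term described next. The genes whose terms were most like those of GRHL2 were MKS1 and TULP3, both cilium genes (Jaccard index 0.40 each, 2 shared terms), and RARG (0.20, 2 shared terms), over the 314 terms.

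GRHL2, CLDN3 and OCLN met in a tight junction term, 1 of the 2 terms that name 3 of the 8. Bicellular tight junction assembly held 13 of 32 background genes, with a fold of 1.88 by the authors' deposited table (p = 0.0294, adjusted p = 0.790; exact interval from 1.00 to 3.21). It named GRHL2, CLDN3 and OCLN together with CLDN1, the occludin relatives MARVELD2 (tricellulin) and MARVELD3, the junctional adhesion molecule F11R, the polarity proteins PATJ and PRKCI, the scaffold MPP7, the small GTPase RAB13, APC and STRN. Without GRHL2, CLDN3 and OCLN in the term, and without the 8 genes in the list and background, its fold would be 1.60. OCLN was also in cell-cell junction organization, with 9 of 18 genes and a fold of 2.32 by the authors' deposited table (adjusted p = 0.774; exact interval from 1.06 to 4.39). That term and tight junction assembly had 5 genes in common, CLDN1, MARVELD2, MARVELD3, OCLN and PRKCI, which are 5 of its 9 and 5 of the other's 13 and the largest overlap by Jaccard index (0.294) among the 18 terms. The remaining 4 were CXADR, a viral receptor of tight junctions, NF2, CCM2 and TGFB2. The third OCLN term, protein complex assembly, was broad, at 35 of 116 genes and a fold of 1.40 by the authors' deposited table (adjusted p = 0.799; exact interval from 0.975 to 1.94).

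CLDN3 was in 4 terms. Protein heterooligomerization held 24 of 67 genes with a fold of 1.66 by the authors' deposited table (adjusted p = 0.593; exact interval from 1.06 to 2.46), and protein homooligomerization 48 of 177 with a fold of 1.26 by the authors' deposited table (adjusted p = 0.933; exact interval from 0.927 to 1.66). Both named CLDN1 as well, and CLDN1 was in 3 of the 4 CLDN3 terms, the most of any gene (Jaccard index 0.50). ITPR3, a calcium release channel (0.50), and TMEM120A (0.40) came next with 2 shared terms each. For OCLN the most similar gene was MARVELD2 (Jaccard index 0.67, 2 shared terms), followed by MARVELD3 (0.50) and APC (0.33). The claudin family has 24 protein-coding genes in the annotation, of which CLDN1 and CLDN3 were named (8.33%), against 15.8% of all background genes named in the MDA231 table.

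CDH1 had no term in common with any of the other 7. Of all 28 pairs of the chosen genes, 7 shared a term. The share over all pairs of named genes was not computed, so the lack of a common term does not set CDH1 apart. Its first term was neuron projection development, with 34 of 100 genes and a fold of 1.57 by the authors' deposited table (p = 0.00538, adjusted p = 0.503; exact interval from 1.09 to 2.20), beside APP, CDK5 and the dendritic microtubule protein MAP2. Establishment of protein localization to plasma membrane held 16 of 42 genes with a fold of 1.76 by the authors' deposited table (adjusted p = 0.775; exact interval from 1.01 to 2.86). It named CDH1 with 2 desmosomal proteins, JUP (plakoglobin) and PKP2 (plakophilin 2), and with F11R and RAB13 of the tight junction term. Protein localization to plasma membrane held 20 of 63 genes with a fold of 1.47 by the authors' deposited table (adjusted p = 0.939; exact interval from 0.899 to 2.27). The term cell-cell adhesion did not name CDH1, CLDN3 or OCLN, so E-cadherin entered this table through protein localization and projection terms. The genes most like CDH1 were ZFYVE27 (protrudin; Jaccard index 0.50), RAPGEF2 (0.29) and RAB13 (0.25), each with 2 shared terms. Of 23 CDH genes in the annotation, CDH1 was the sole one named (4.35%, against 15.8% of background genes).

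The keratins were in 4 terms between them, and KRT18 was in all 4. Cell cycle, the tenth term by p, held 76 of 217 genes with a fold of 1.62 by the authors' deposited table (p = 6.66e-06, adjusted p = 0.00431; exact interval from 1.28 to 2.02). Cell-cell adhesion held 86 of 271 genes with a fold of 1.47 by the authors' deposited table (p = 0.000102, adjusted p = 0.0462; exact interval from 1.18 to 1.81). Besides KRT18 it named the tight junction scaffold TJP1, F11R, PPL (periplakin) and LAD1 (ladinin), but its 86 genes also included EEF2, FASN and ENO1, which serve translation, fatty acid synthesis and glycolysis. KRT8 and KRT18 were both in the extrinsic apoptotic signaling pathway, with 17 of 42 genes and a fold of 1.87 by the authors' deposited table (p = 0.0110, adjusted p = 0.600; exact interval from 1.09 to 3.00). That term also named the death receptors FAS and TNFRSF10A and their partners FADD, TRADD and CASP8. All 3 keratins were in viral process, the only term for KRT7, with 76 of 299 genes and a fold of 1.18 by the authors' deposited table (adjusted p = 0.953; exact interval from 0.929 to 1.47). Its other members included 10 nucleoporins of the NUP symbols, among them NUP62, NUP93 and NUP98. KRT18 was the sole other gene in both KRT8 terms. For KRT18 the most similar genes were KRT8 and TMEM250 (Jaccard index 0.50 each) and SND1 (0.40). Neither keratin filament nor epidermal terms brought the keratins in. Of 55 keratin genes in the annotation, KRT7, KRT8 and KRT18 were named (5.45%, against 15.8% of background genes).

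MUC1 was in 2 terms. In utero embryonic development held 56 of 187 genes with a fold of 1.39 by the authors' deposited table (p = 0.00713, adjusted p = 0.533; exact interval from 1.05 to 1.80), among them GATA3, GATA6, NOTCH1, SMAD4 and CTNNB1. Response to hypoxia held 46 of 172 genes with a fold of 1.24 by the authors' deposited table (p = 0.0870, adjusted p = 0.958; exact interval from 0.908 to 1.65), and named MUC1 and CLDN3 with CD24, a surface glycoprotein, ADM, EGLN3 and ARNT. Of the 18 terms this one was nearest to the end of the table, whose largest listed p was 0.0973. The genes sharing both MUC1 terms were SMAD4 (Jaccard index 0.22) and TGFBR2 (0.20), which carry TGF-beta signals.

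Pairs of the 8 are given as a description, since the share of all pairs of named genes that share a term was not computed. Of their 28 pairs, 7 shared a term: the 3 pairs among GRHL2, CLDN3 and OCLN, the 3 pairs among the keratins, and CLDN3 with MUC1. KRT8 and KRT18 shared 2 terms and the other 6 pairs 1 each. Besides the 8, the 18 terms named 505 genes. CLDN1 and TGFB2 were in 4 of the 18 each, and CTNNB1 (beta-catenin, which binds E-cadherin), EHD1, F11R, FAS, RAB13, SEPTIN9 and SMAD4 in 3 each.

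The genes were named in 1 to 5 terms each, with a median of 3, against a median of 2 and a maximum of 23 over all 2646 genes of the MDA231 table. GRHL2 had 5 terms, and 238 genes were in more. CLDN3 and KRT18 had 4, CDH1 and OCLN 3, KRT8 and MUC1 2, and KRT7 1, as did 1047 of the named genes, KRT7 included. The number of terms reflects how many annotations a gene carries as well as which terms are listed, so it is no measure of expression.

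**Figure D2:**
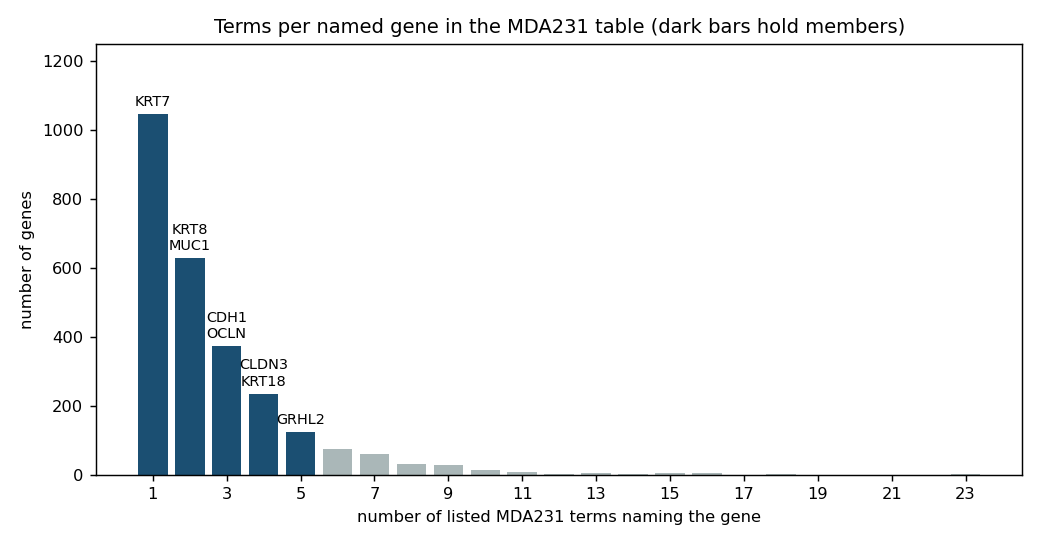
Number of genes (vertical axis) named in a given number of listed MDA231 terms (horizontal axis). The 8 genes are written above their bars and lie at 1 to 5 terms, while the tail of the distribution reaches 23.

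The 18 terms were broader than the rest. They had a median of 72 background genes against 29.5 in the other 296 MDA231 terms, and a median fold of 1.53 against 1.95 in the authors' deposited table. A term with more genes is likelier to name any given gene. The way the 18 were picked thus favours larger terms, so their larger size is no result. How much of the gap in size this accounts for was not tested. Of the 18, 15 were larger than the median of all 314 terms and 3 had a fold above the median of all, namely face development, cell-cell junction organization and positive regulation of telomerase activity. The listing also ends at an unadjusted p of 0.0973 by the authors' enrichment, which a small term reaches only with a high fold. Among all listed terms, the lowest fold, 1.06, was that of transcription, DNA-templated, with 1955 background genes. The highest, 4.63, was reached by terms such as cellular response to camptothecin, with 4 background genes. A relation of size and fold over all terms was not computed. The smaller fold of the 18 stands beside their larger size, and the part of size in it was not tested.

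**Figure D3:**
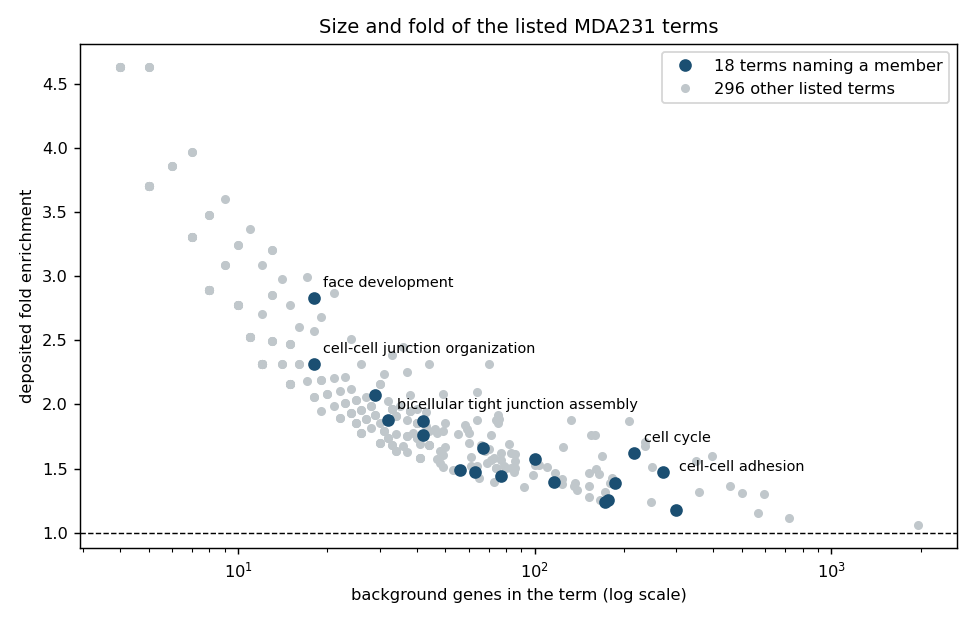
Each point is a listed MDA231 term, placed by its number of background genes (log scale) and its deposited fold enrichment. The 18 terms naming a member (dark) run from face development at 2.83-fold with 18 background genes to viral process at 1.18-fold with 299, within the band of the other 296.

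Wider epithelial gene lists were then looked up in both tables. Of 73 genes in 6 epithelial lists, 30 were named in the MDA231 table (41.1%) and 0 in the HCC1954 table, where 15.8% and 0.179% of the 16792 background genes were named. Leaving out the 8 genes themselves, 22 of 65 were named in the MDA231 table (33.8%). In at least 2 terms, 9 of these 65 were named (13.8%, against 9.52% of background genes), and in terms with an adjusted p under 0.05, 5 were (7.69%, against 4.99%), so the gap to the background was smaller under both. These lists were drawn up with earlier results of these data known, so the counts are descriptions. Genes are printed only in listed terms, so a gene without one could have been in the authors' list all the same.

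The tight and adherens junction lists had the highest shares of the 6, counting CLDN3, OCLN and CDH1, which were chosen for being named. The share over all background genes was 15.8%. The tight junction list had 9 of 16 named (56.3%), among them CLDN1, CLDN3, OCLN, F11R, MARVELD2, MARVELD3 and TJP1. The adherens junction list had 6 of 11 (54.5%): CDH1, its binding partners CTNNB1 and CTNND1 (p120 catenin), JUP, and the nectins NECTIN1 and NECTIN4. CTNNB1, which is also a Wnt signalling protein, was in 13 terms, while CTNND1 was in 1, the broad term transcription, DNA-templated. Both nectins were in viral entry into host cell, which also held CLDN1 and F11R. The desmosome list had 3 of 10 (30%), PKP2, DSC2 (a desmosomal cadherin) and PPL, each in 1 term.

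The mucin and surface list had 5 of 10 named (50%, against 15.8% of background genes), among them MUC1, MUC20 and SPINT1, an inhibitor of epithelial surface proteases. In at least 2 terms 1 of the 10 was named, against 9.52% of background genes, and it was MUC1, chosen for being named. The transcription and splicing factor list had 4 of 13 (30.8%): ELF3, FOXA1, GATA3 and GRHL2, the last chosen for being named. GATA3, a luminal breast factor, was in 9 terms and FOXA1, its frequent partner, in 3. The keratin list had 3 of 13 (23.1%), which were KRT7, KRT8 and KRT18, so its only named genes were those chosen at the outset. Of 17 mucin genes in the annotation, MUC1 and MUC20 were named (11.8%), and of 3 GRHL genes GRHL2, against 15.8% of background genes. The family counts are small and include genes chosen for being named, so their distance from that share is no result. Family sizes were taken from the annotation and not from the authors' background, so the shares are not strictly alike.

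Mesenchymal genes and markers of other cell types that brain tissue could hold were looked up as well. The mesenchymal list had 1 of 17 in the MDA231 table (5.88%, against 15.8% of background genes), TGFB2, and 2 of 17 in the HCC1954 table (11.8%, against 0.179%), TGFB1 and AXL. That list, too, was drawn up with earlier results of these data known. TGFB1 and AXL are 2 of only 30 genes named in the HCC1954 table, so the 11.8% is a description and no result. In the MDA231 table the neuronal list had 1 of 8 (12.5%, MAP2), the endothelial list 1 of 6 (16.7%, PECAM1), and the choroid plexus and ependyma (0 of 9), astrocyte, oligodendrocyte and microglia lists (0 of 6 each) had none; in the HCC1954 table these 6 lists had 0. These lists are too short for such counts to be set apart from the 15.8% of background genes named. Since the lookup was of human genes and unnamed does not mean absent, the part of host RNA in these lists was not tested.

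**Figure D4:**
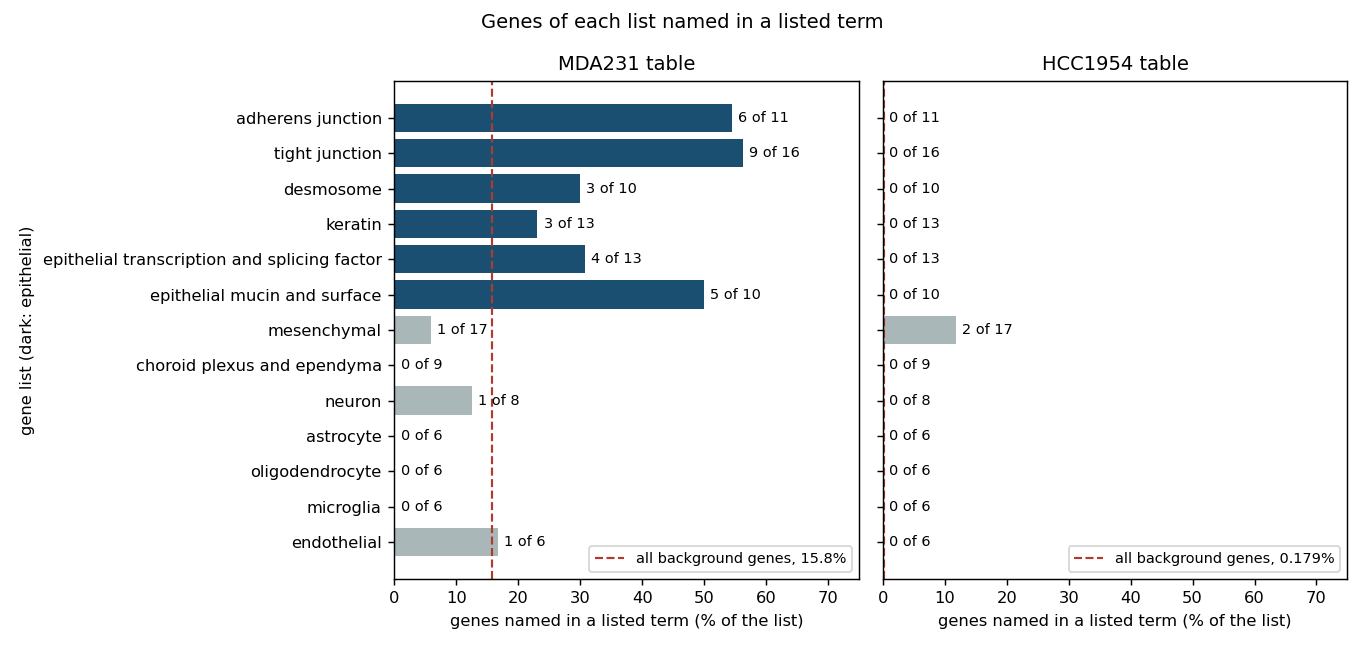
Share of each gene list named in at least 1 listed term of the MDA231 table (left) and the HCC1954 table (right), with the number of genes beside each bar and the share of all background genes as a dashed line (15.8% and 0.179%). The 6 epithelial lists (dark) lie at 23.1% to 56.3% in the MDA231 table and at 0 in the HCC1954 table. These shares count the 8 genes, which were chosen for being named in the MDA231 table. The 3 named keratins are all among the 8. Without the 8, 22 of 65 genes of the 6 lists together were named (33.8%).

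The HCC1954 table named none of the 8 genes and none of the 73 epithelial genes, but the MDA231 table was made from 3626 listed genes, 21.6% of the background, and the HCC1954 table from 66, or 0.393%. With so few listed genes, the absence of the 8 from the HCC1954 table does not show a difference between the lines. Its 37 terms did include epithelial to mesenchymal transition, with BMP7, HMGA2 and TGFB1 (3 of 34 genes; by the authors' deposited table the fold was 22.4 and the adjusted p 0.934; exact interval from 4.68 to 62.8). The MDA231 table held regulation of epithelial to mesenchymal transition, at 6 of 12 genes and a fold of 2.32 by the authors' deposited table (adjusted p = 0.965; exact interval from 0.850 to 5.03), and 0 of the 8 genes were in it. Prostate gland epithelium morphogenesis (5 of 7 genes; by the authors' deposited table the fold was 3.31 and the adjusted p 0.858) held FOXA1 and RARG, and also none of the 8. A pair of mesenchymal terms was listed too, without any of the 8. Positive regulation of mesenchymal cell proliferation in the MDA231 table held 10 of 26 genes, with CTNNB1 and TGFBR2, and its fold was 1.78 by the authors' deposited table (adjusted p = 0.960; exact interval from 0.855 to 3.27). Mesenchymal cell differentiation in the HCC1954 table held 2 of 8 genes, BMP7 and HMGA2, and its fold was 63.6 by the authors' deposited table (adjusted p = 0.864; exact interval from 7.75 to 220.9).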

How the data were processed

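Per the submitters' processing notes, reads were processed with STAR and HTSeq on GRCh38 and GRCm38; no source used here gives their versions. The 2 deposited tables hold, per the file headers, numbers of genes, the percent of submitted genes, an unadjusted enrichment p-value, Bonferroni and Benjamini p-values, a false discovery rate in percent and a fold enrichment, which is a ratio of listed to background share. No source used here names the enrichment tool or says how genes came to be listed, and no value per library was analysed. The percent and false discovery rate columns were not used.

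Identifiers were matched to symbols (2645 of 2646 for MDA231, 30 of 30 for HCC1954). For each fold, the exact 95% binomial interval (Clopper-Pearson) of the term's share of the listed genes was divided by its background share; it covers counting error only. Likeness of genes is the Jaccard index of their MDA231 terms, with at least 2 shared terms; the 3 most alike are named. No test was made here, since the genes were chosen from these tables. The members and the 13 gene lists were chosen with earlier results of these data known. Named genes were the 8, their most alike genes and the named genes of the epithelial lists; every term naming a member is named. Other genes named as term partners, the 4 motifs, the 5 families and the 5 terms without a member that were looked up were chosen after the values were seen. Motifs were searched in the 250 bases before 1 RefSeq start per gene, and in all promoter windows of the RefSeq table for the share. The count of terms per gene, the collapsing of terms, the exact binomial interval and the motif search were tested on simulated data. Parsing of the deposited values and the scaling of intervals to folds were not. Python 3.11.15, SciPy 1.17.1, NumPy 2.4.6 and Matplotlib 3.10.9 were used.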

Additional observations from a re-analysis of the deposited data

How the results depend on the processing

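The number of MDA231 terms naming one of the 8 genes with an adjusted p under 0.05 was 2. It was 1 with a Benjamini p under 0.01, 1 with the Bonferroni p (cell cycle in both cases) and 12 with the unadjusted p; requiring 10 background genes or collapsing terms at a Jaccard index of 0.5 left it at 2. All 8 genes were named, 7 in at least 2 terms, and 1 (KRT18) when terms with a Benjamini p under 0.05 alone were counted. For the 6 epithelial lists the 30 named genes were 16 in at least 2 terms and 6 in terms with a Benjamini p under 0.05; without the 8 genes the 22 were 9 and 5 (13.8% and 7.69% of 65, against 9.52% and 4.99% of background genes). Of 78 counts of single lists under an alternative, 48 were 0 at the start and could not fall; of the other 30, 14 fell by more than 1.5 times, as fewer terms were counted. The 18 folds were 1.14 to 2.73 without the 8 genes, lower by construction. The 3 most alike genes differed with the overlap coefficient for GRHL2 and OCLN. No paired analysis was possible because the tables hold no value per library, and leaving out a replicate could not be run for the same reason. Depth per library is unknown.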
